A study of Citrus sinensis with 24 samples.

Results

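The genes described here are those whose RNA was higher in the sweet orange variety Succari than in each of 3 other varieties, both in young and in older fruits. Of 24166 genes, 104 met this rule. For every gene the reads of a library were divided by that library's total and scaled to 1000000 reads (CPM), and 1 was added to the mean of each variety at each stage. The difference d is the log2 ratio of the Succari value to the highest of the other 3 varieties, and a gene was kept when d was at least 0.585 at 45 days post anthesis (DPA) and again at 142 DPA. Levels in Succari against the other varieties therefore chose these genes, and they are given below as a description without a test.

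The study sequenced RNA of fruits from field-grown Citrus sinensis trees of 4 varieties that differ in fruit acidity. Succari is an acidless variety, Bingtang has low acid, and Newhall and Xinhui have normal acid. The study reports that acid was similar among the varieties in young fruits and differed in older ones. Each variety was sampled at 45 DPA and at 142 DPA with 3 biological replicates, which gives 8 groups and 24 libraries. Acidity cannot be told apart from any other difference between varieties, because the acidless and the low acid class hold 1 variety each. In addition, fewer cells of a type and less RNA per cell cannot be told apart in whole fruit tissue.

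Sweet orange fruits grow first by cell division and later by expansion of the juice sac cells, and 45 and 142 DPA fall in those phases. Citric acid is the main acid of citrus fruits. It is made in the mitochondria and stored in the vacuoles of the juice sac cells, and the acid of the ripening fruit depends on its synthesis, its transport into the vacuole, and its later use. Acidless citrus fruits such as those of Succari keep little acid as they mature. None of the 104 genes is among the 72 genes that the study describes by name, and no annotation used here matched their identifiers, so they are given by identifier and no role is stated for any of them.

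Library totals lay between 3.76 and 5.89 times 1000000 reads. Succari replicate 3 at 142 DPA stood apart from the other Succari replicates of that stage. For 8 seed maturation genes used as a sign of seed tissue, the summed level was 3969, 4011 and 45.0 CPM in Succari replicates 1, 2 and 3 at 142 DPA, against 21.8 to 69.6 CPM in the 9 libraries of the other varieties. These 8 genes come from the study's own list, chosen by correlation with the sugar/acid ratio in these same libraries. Their difference between Succari and the other varieties at 142 DPA is therefore not independent of that choice. At 45 DPA the same sum was 71.4 to 75.5 CPM in Succari and 34.8 to 48.7 CPM in the other varieties, and nearly all of it came from Cs5g24670. At 142 DPA Cs5g24670 went against the sum, with 2.45 to 5.04 CPM in Succari and 11.4 to 55.2 CPM in the other varieties. Without this gene, the remaining 7 genes summed to 3966, 4008 and 39.9 CPM in Succari at 142 DPA, to 4.56 to 33.0 CPM in the other varieties at 142 DPA, and to 0.341 to 3.02 CPM over all 12 libraries at 45 DPA. The part of this list in the levels below was not tested. Levels of single genes in Succari at 142 DPA are mostly given by replicate or as a range. Differences d, folds, stage changes and their tests use the 3 Succari libraries of that stage together, unless a replicate is named.

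At 45 DPA, 366 genes passed the threshold, and the 104 genes were 28.4% of them. At 142 DPA, 1533 genes passed it, and the 104 genes were 6.78% of those. The median d was 1.14 at 142 DPA (0.59 to 7.40) and 0.85 at 45 DPA (0.59 to 3.25), with the larger difference at 142 DPA in 70 genes and at 45 DPA in 34. Only 29 genes had a d of 1 or more at both stages. The mean level over the 6 Succari libraries spanned 0.884 to 384 CPM, with a median of 12.8 CPM. Of the 104 genes, 99 reached 0.3 CPM in at least 3 of the 18 libraries of the other varieties, and 5 reached it only when the Succari libraries were counted.

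**Figure D1:**
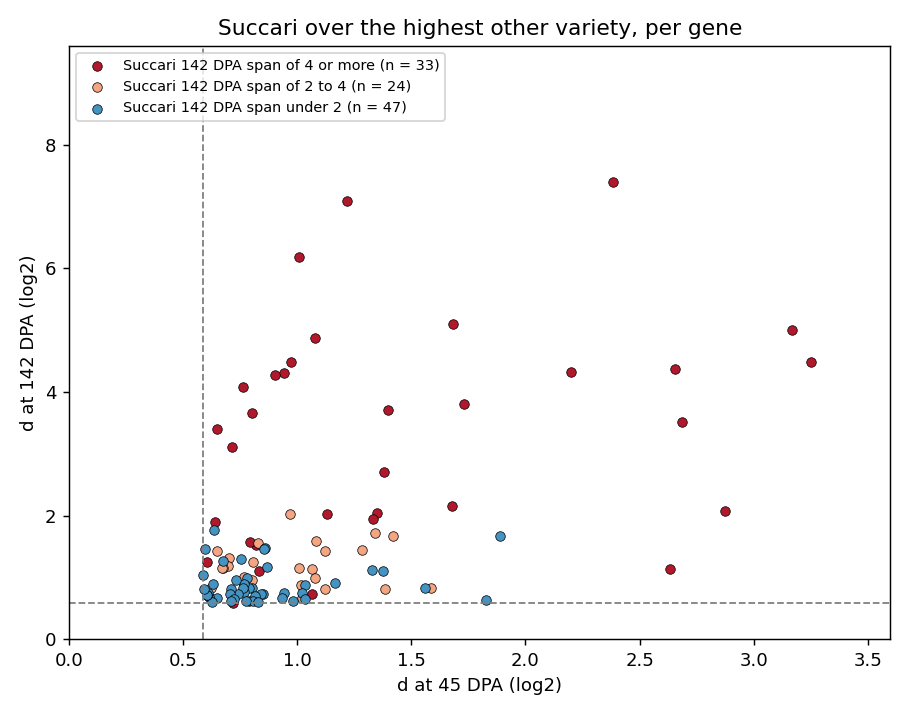
The log2 difference d between Succari and the highest other variety at 45 DPA (horizontal axis) and at 142 DPA (vertical axis), 1 point for each of the 104 genes, coloured by the ratio of the highest to the lowest Succari replicate at 142 DPA, with dashed lines at the threshold of 0.585. The differences reach 3.25 at 45 DPA and 7.40 at 142 DPA, and the genes with the largest differences at 142 DPA are those whose Succari replicates differed by 4-fold or more.

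Genes just inside and just outside the threshold had nearly the same d. The genes nearest above it were Cs5g04300, orange1.1t00608 and Cs8g11810, each with a smaller d of 0.59. The nearest below were Cs7g02060, Cs7g16790 and Cs1g22460, each with a smaller d of 0.58. At 45 DPA, Cs7g02060 averaged 8.87 CPM in Succari and 5.58 CPM in the highest other variety, and at 142 DPA it averaged 12.9 CPM in Succari and 7.39 CPM in the highest other variety.

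The 8 genes with the widest gap over both stages (by the smaller d) all had their lowest mean at 45 DPA in Newhall. Cs6g09080 had 27.9, 37.7 and 32.3 CPM in Succari at 45 DPA, against 0.591 to 1.02 CPM in Bingtang, 0 to 0.178 CPM in Newhall and 2.34 to 2.87 CPM in Xinhui. At 142 DPA it had 31.3, 40.7 and 0.373 CPM in Succari, against 2 reads in all 9 libraries of the other varieties. The Succari libraries lay above all others at both stages, although Succari replicate 3 at 142 DPA was close to the rest. Cs5g06570 had 74.1, 133 and 136 CPM in Succari at 45 DPA, against 4.34 to 5.94 CPM in Bingtang, 1.60 to 3.99 CPM in Newhall and 10.7 to 13.0 CPM in Xinhui. At 142 DPA it had 161, 134 and 9.89 CPM in Succari, against 0.651 to 3.78 CPM in the 9 other libraries. Its groups did not overlap at either stage, and again replicate 3 at 142 DPA was the lowest of the Succari libraries.

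Other genes of this kind had a smaller d above 1.7. Cs2g08790 had 12.0 to 16.3 CPM in Succari at 45 DPA and at most 1.87 CPM in any other library of that stage, and Cs2g08770 had 23.0 to 31.8 CPM in Succari and at most 4.60 CPM elsewhere. At 142 DPA, Cs2g08790 had 17.3, 18 and 0.373 CPM in Succari and 2 reads in the other varieties, and Cs2g08770 had 35.1, 35.7 and 0.187 CPM in Succari and 3 reads in the other varieties. For both genes Succari replicate 3 fell within the range of the other varieties at 142 DPA, whereas at 45 DPA all Succari replicates stood above it. Cs3g20770 had 13.2 to 15.9 CPM in Succari and at most 4.24 CPM elsewhere at 45 DPA, and 26.4, 24.7 and 2.24 CPM in Succari and at most 0.868 CPM elsewhere at 142 DPA. orange1.1t04144 differed from these in that the other varieties also carried it at the later stage, with 22.1 to 24.3 CPM in Succari and 0.711 to 3.17 CPM elsewhere at 45 DPA, and 107, 145 and 28.9 CPM in Succari and 3.47 to 38.2 CPM elsewhere at 142 DPA.

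**Figure D2:**
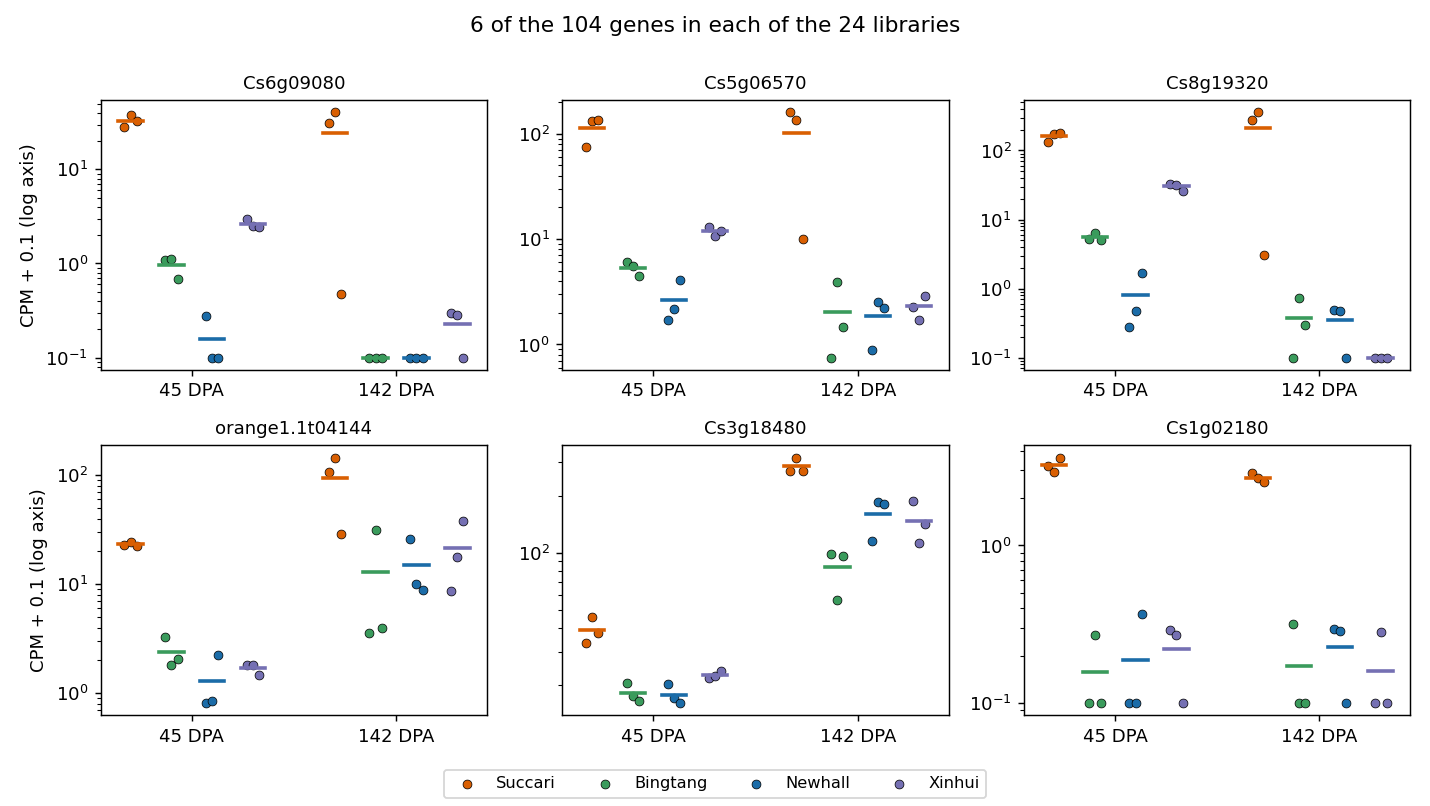
CPM plus 0.1 on a log axis for 6 of the 104 genes, 1 point a library and a bar at the mean of each group of 3, with Succari, Bingtang, Newhall and Xinhui side by side at 45 and 142 DPA. Succari lies highest by its mean in every panel, while its replicate 3 at 142 DPA falls to 0.373 CPM for Cs6g09080 and 2.99 CPM for Cs8g19320 but stays at 271 CPM for Cs3g18480.

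Whether every Succari replicate stood above every other library was counted for each gene. At 45 DPA the 3 Succari libraries lay above all 9 others in 88 of the 104 genes, and 7.64% of all 20739 genes tested showed this. At 142 DPA they did so in 64 of the 104 genes, against 5.56% of all genes, and at both stages in 54, against 0.791% of all genes. In the fit over all genes, Succari was called higher than the mean of the others in 74 of the 104 genes at 45 DPA (2.17% of all genes) and in 98 at 142 DPA (10.1%), and lower in none (1.05% and 1.82%). The rule used this contrast, so these counts only describe how the libraries lie. Replicates 1 and 2 of Succari at 142 DPA both lay above the highest other library in 98 genes, and replicate 3 did not in 36 genes.

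The Succari replicates at 142 DPA divided the genes further. The span of a gene, the ratio of its highest to its lowest Succari replicate after adding 1 CPM, had a median of 2.34 and a maximum of 111 at 142 DPA, against a median of 1.34 and a maximum of 2.43 at 45 DPA. In 33 genes the span at 142 DPA was 4 or more, and replicate 3 was the lowest in all 33. In 24 genes it was between 2 and 4, with replicate 3 lowest in 17. In the other 47 it was under 2, with replicate 3 lowest in 25. A span of 3.5 to 4 was found for 4 genes and one of 4 to 4.5 for 2 genes, so the split has no clear gap. The added 1 CPM lowers the span most in genes near or below 1 CPM. A low gene can thus count as even though its replicates differ by a wider ratio.

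As a class, the 33 uneven genes had the widest median gap to the other varieties by the Succari mean. Their median fold of Succari over the mean of the others was 59.0 at 142 DPA and 5.85 at 45 DPA, compared with 4.15 and 3.20 for the 24 genes with a span of 2 to 4 and with 2.47 and 2.38 for the 47 even genes. At 142 DPA, 24 of the 33 uneven genes, 8 of the 24 and 8 of the 47 averaged less than 1 CPM in each of the other varieties. All 3 Succari libraries lay above the 9 others at 142 DPA in 12 of the 33, 11 of the 24 and 41 of the 47 genes. Replicate 3 lay above those 9 in 12, 14 and 42 genes. The span and the fold at 142 DPA both use replicates 1 and 2, so they are not independent. At 142 DPA the 33 uneven genes were high and low in the same Succari replicates as the seed maturation list, whose part was not tested. Their median span over the Succari libraries at 45 DPA was 1.33.

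**Figure D3:**
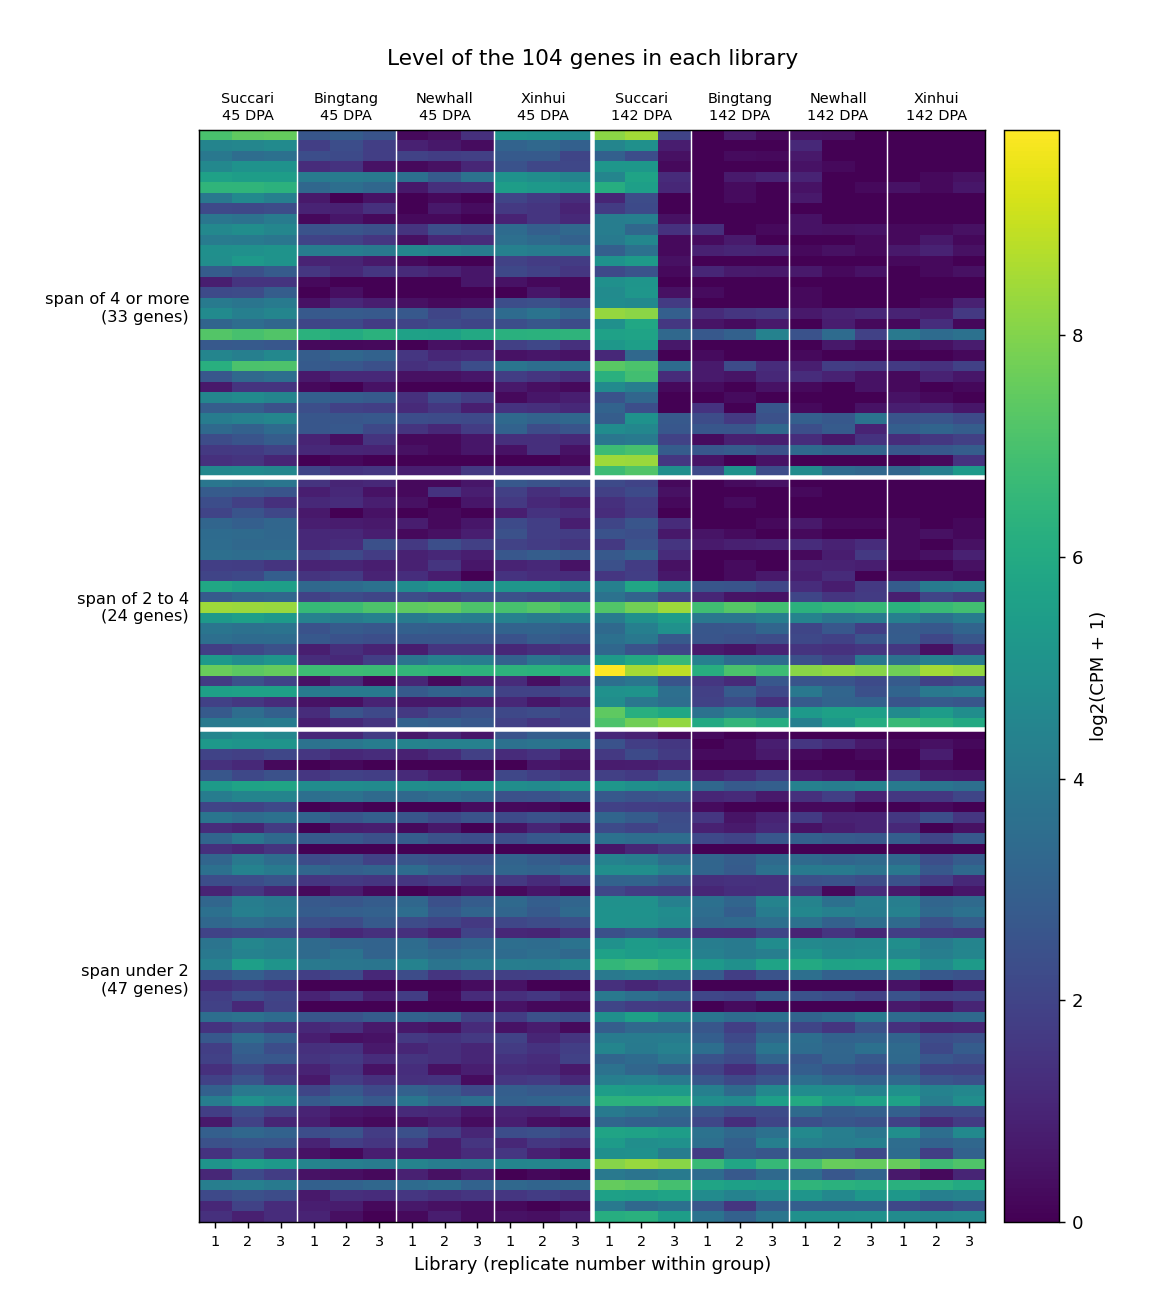
Level of each of the 104 genes (one row a gene) in each of the 24 libraries, as log2(CPM + 1), with the libraries grouped by variety and stage and the genes grouped by the Succari span at 142 DPA. In the top block of 33 genes Succari replicate 3 at 142 DPA is darker than the other Succari libraries, and in the bottom block of 47 genes it is not set apart.

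The most uneven gene, Cs6g05190, had 337, 326 and 2.05 CPM in Succari at 142 DPA, against 0 to 1.74 CPM in the other varieties. At 45 DPA it was low everywhere, with 1.05 to 1.83 CPM in Succari and 2 reads in all 9 other libraries. Its large difference at 142 DPA thus rested on 2 Succari libraries. Cs8g19320 had 281, 361 and 2.99 CPM in Succari at 142 DPA, against at most 0.631 CPM elsewhere, but at 45 DPA it already had 131, 173 and 182 CPM in Succari, against 26.0 to 33.0 CPM in Xinhui as the highest other variety. Cs4g08530 had 76.0, 116 and 1.31 CPM in Succari at 142 DPA, against 0.199 to 1.38 CPM elsewhere, with replicate 3 inside the range of the others. At 45 DPA it had 5.42 to 10.7 CPM in Succari and 0.355 to 2.49 CPM elsewhere, without overlap. orange1.1t01050 had 314, 284 and 6.91 CPM in Succari at 142 DPA, against 0.592 to 2.14 CPM elsewhere.

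The Succari replicates at 45 DPA differed little, and the most uneven genes there were Cs8g13420, Cs5g04200 and orange1.1t04603. Cs8g13420 had 0.580, 2.84 and 1.05 CPM in Succari at 45 DPA, against 0.195 to 0.792 CPM elsewhere. Cs5g04200 had 19.7, 46.8 and 33.5 CPM in Succari at 45 DPA, against 12.8 to 21.3 CPM elsewhere. For both the lowest Succari replicate overlapped the other varieties at 45 DPA, but at 142 DPA all 3 Succari libraries were above every other library, at 79.5 to 103 CPM for Cs5g04200 against 24.9 to 62.3 CPM elsewhere.

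Some genes with a span under 2 at 142 DPA were almost confined to Succari at both stages. Cs3g04560 had 1.22 to 1.76 CPM in Succari at 45 DPA and 0.524 to 1.87 CPM in Succari at 142 DPA, and no read in any of the 18 libraries of the other varieties. Against a floor of 3 reads over the 9 other libraries of a stage, it was at least 23.6-fold higher in Succari at 45 DPA and at least 18-fold higher at 142 DPA, with counting error only. It was the only gene of the 104 without a read outside Succari. Cs1g02180, singled out after its values were seen, had 2.84 to 3.51 CPM in Succari at 45 DPA and 2.43 to 2.79 CPM at 142 DPA, against 4 reads in the 9 other libraries of each stage. All 6 Succari libraries carried these genes, replicate 3 at 142 DPA included. In 10 genes each of the other varieties averaged less than 1 CPM at both stages.

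Among the 8 most abundant genes in Succari, Cs8g19530, orange1.1t02788 and Cs3g18480 were present in every library of every variety, with a lowest value of 16.0 CPM. Cs8g19530 had 163 to 194 CPM in Succari at 45 DPA and 68.8 to 108 CPM elsewhere. At 142 DPA it had 924, 371 and 467 CPM in Succari, against 71.2 to 133 CPM in Bingtang, 263 to 302 CPM in Newhall and 212 to 358 CPM in Xinhui. No Succari library overlapped another at either stage. orange1.1t02788 had 319 to 341 CPM in Succari and 96.5 to 185 CPM elsewhere at 45 DPA, and 145, 214 and 342 CPM in Succari and 77.5 to 151 CPM elsewhere at 142 DPA, where 1 Bingtang library exceeded the lowest Succari library. Cs3g18480 had 33.1 to 45.8 CPM in Succari and 16.0 to 23.6 CPM elsewhere at 45 DPA, and 269 to 317 CPM in Succari and 55.9 to 187 CPM elsewhere at 142 DPA. It kept its gap at both stages in every replicate, including replicate 3 at 142 DPA.

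Among the other varieties, which the rule used only through their highest mean, more of the 104 genes were called lower than higher in Newhall against Xinhui at 45 DPA. In edgeR's quasi-likelihood test over all genes (Benjamini-Hochberg adjusted p under 0.05 and at least 2-fold), 11 genes were lower in Newhall and 0 were higher, against 1.48% and 1.49% of all genes. At an unadjusted p under 0.05, 7 genes were higher and 27 lower in Newhall, a setting not counted over all genes. DESeq2 called 1 higher and 12 lower, against 303 and 286 of all 20739 genes. In all 11 genes the 3 Newhall libraries lay below the 3 Xinhui libraries, and the Bingtang mean was between them. The median difference was -0.32 on the log2 scale over the 104 genes and -0.00 over all genes. The count changed with the libraries fitted. It was 28 without Succari replicate 3 at 142 DPA (2 higher, 26 lower) and 33 when only the Newhall and Xinhui libraries of this stage were fitted (5 higher, 28 lower), and both held the 11 genes. Over all genes, the first of these fits called 341 higher and 388 lower of 20691, and the second 432 and 557 of 20739. The cause of these differences was not tested. The count was 5 or 4 without Newhall replicate 1 or 2 and 6 or 7 without Xinhui replicate 1 or 2 at 45 DPA.

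Cs2g11990 had 0.533, 1.50 and 1.60 CPM in Newhall and 43.7, 39.2 and 34.2 CPM in Xinhui at 45 DPA. It was 33.8-fold lower in Newhall by summed reads (log2 difference -4.98 ± 0.83 SE, adjusted p = 0.00038 in edgeR, n = 3 each), with 8.67 to 10.9 CPM in Bingtang and 80.1 to 85.2 CPM in Succari. The 4 varieties thus held 4 separate levels. Cs8g19320 had 0.178, 0.375 and 1.60 CPM in Newhall and 33.0, 31.7 and 26.0 CPM in Xinhui at 45 DPA (log2 difference -5.51 ± 1.35 SE, adjusted p = 0.015 in edgeR, n = 3 each), with 4.93 to 6.30 CPM in Bingtang. It too had 4 levels without overlap, although its call was lost without Newhall replicate 1 or 2 (adjusted p up to 0.082 in edgeR). The remaining 9 of the 11 genes had log2 differences of -4.57 to -2.18.

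The same order, Succari highest and then Xinhui, Bingtang and Newhall, was common at 45 DPA. The means of the other varieties fell in the order Xinhui over Bingtang over Newhall in 46 of the 104 genes, against 21.8% of all genes, and in 24 of the 33 uneven ones. All 9 libraries were in that order without overlap in 16 genes, against 1.56% of all genes, and 13 of these were uneven. By pairs, all Newhall libraries lay below all Xinhui libraries in 35 genes (20.1% of all genes) and above them in 11 (12% of all genes), all Bingtang libraries lay below Xinhui in 35 (18.1%) and above in 10 (14.4%), and all Bingtang libraries lay above Newhall in 29 (16.7%) and below in 7 (12.8%). The highest of the other means was that of Bingtang in 16 genes, of Newhall in 18 and of Xinhui in 70 at 45 DPA. At 142 DPA it was that of Bingtang in 22, of Newhall in 52 and of Xinhui in 30. Which mean was highest was not counted over all genes. At 142 DPA, all Bingtang libraries lay above Newhall in 6 genes (9.46% of all genes) and below in 25 (21%). All Newhall libraries lay above Xinhui in 14 (24.9%) and below in 6 (10.3%). All Bingtang libraries lay above Xinhui in 6 (18.2%) and below in 14 (14.9%). A Newhall lead over Xinhui at 142 DPA was thus common over all genes. These counts use CPM without TMM scaling. The rule limits how high the highest other variety can be, but not which variety that is.

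**Figure D4:**
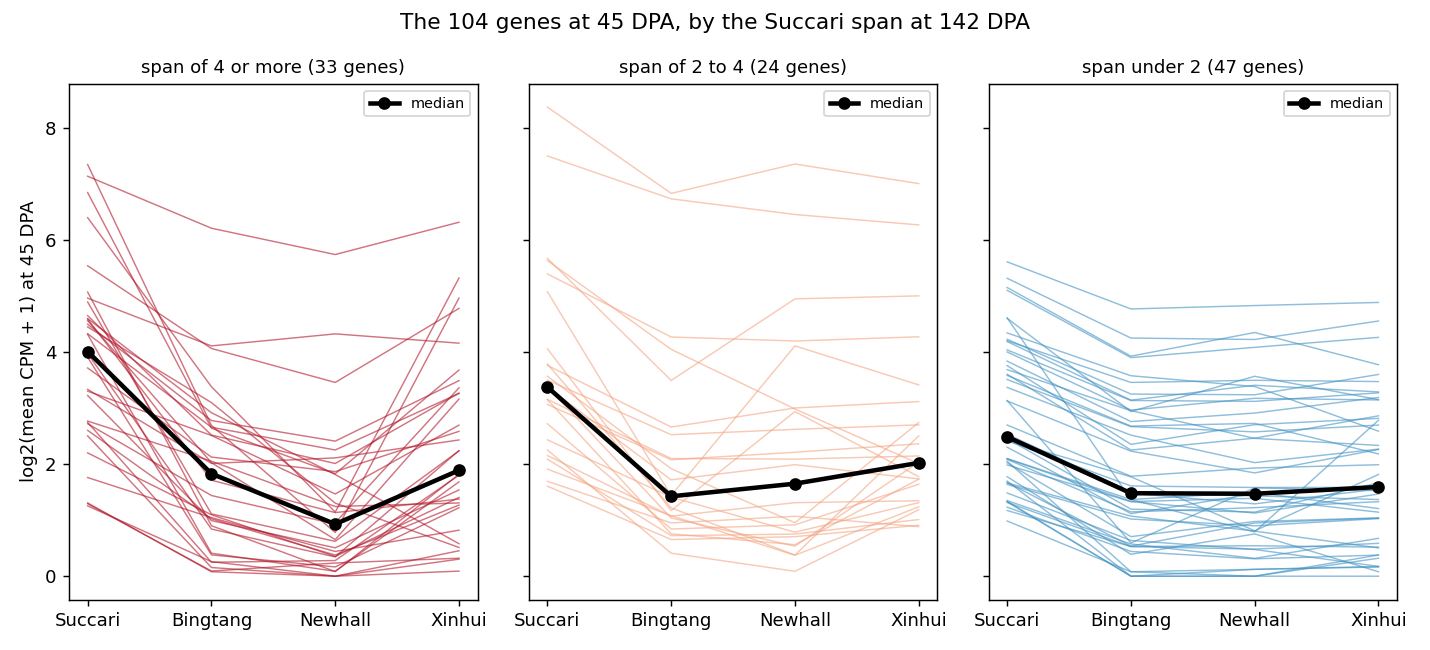
Mean level at 45 DPA as log2(CPM + 1) in Succari, Bingtang, Newhall and Xinhui, 1 thin line a gene and black points at the median, in panels by the Succari span at 142 DPA. In the 33 genes with a span of 4 or more the medians are 4.01 (Succari), 1.83 (Bingtang), 0.93 (Newhall) and 1.89 (Xinhui), and in the 47 genes with a span under 2 they are 2.49, 1.48, 1.47 and 1.59.

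The change between stages was tested within each variety. In Bingtang, 33 genes were higher and 30 lower at 142 DPA than at 45 DPA (17.4% and 20.4% of all genes). In Newhall, 35 were higher and 19 lower (16.7% and 19% of all genes), and in Xinhui 32 were higher and 36 lower (15.3% and 19.9% of all genes). In Succari, whose libraries also chose the genes, 45 were higher and 18 lower (18.2% and 17.4% of all genes). The Succari counts were 46 and 12 without replicate 3 at 142 DPA, and 32 and 45 with replicate 3 as the only library of that group, where its spread is assumed to be that of the other groups. The genes that rose were largely the even ones. Of the 47 even genes, 26 rose and 6 fell in Bingtang, 28 and 5 in Newhall, 24 and 6 in Xinhui, and 28 and 3 in Succari. Of the 33 uneven genes, 2 rose and 12 fell in Bingtang, 2 and 8 in Newhall, 2 and 19 in Xinhui, and 12 and 7 in Succari. On the scale of log2(mean CPM + 1), the median stage change of the uneven genes was -0.22 in Succari and -1.65 in Xinhui, and that of all genes tested lay between -0.05 and 0.11 in the 4 varieties.

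In 26 genes the level rose in all 3 other varieties (9.43% of all genes), and all 26 also rose in Succari, as did 89% of all genes that rose in the 3 others. In 13 it fell in all 3 others (13.3% of all genes), of which 9 fell in Succari too, 3 were not called there and 1 rose. The calls of the others went in opposite directions in 2 genes (0.371% of all genes), and 23 genes were called in none of the 3 (49% of all genes). Succari was the only variety with a called rise in 10 genes (3.91% of all genes), of which 8 were called in none of the others. Some of these rises rested on Succari replicates 1 and 2 at 142 DPA. With replicate 3 as the only library of that group, the log2 change was -1.72 for orange1.1t01050, -3.65 for Cs6g09090 and -2.74 for Cs4g08530. Such values are given for named genes only. Cs7g27750, which rose in Succari and fell in all 3 others, was singled out after its values were seen. It had 30.2, 57.7 and 2.05 CPM at 142 DPA, against 8.13, 10.5 and 8.60 CPM at 45 DPA, in Succari (log2 change 1.74 ± 0.56 SE, adjusted p = 0.010 in edgeR, n = 3 each), and replicate 3 at 142 DPA was below all Succari libraries at 45 DPA. The rise was not called without Succari replicate 2 at 142 DPA (adjusted p = 0.19). In the other varieties it had 0 to 1.44 CPM at 142 DPA and 2.36 to 5.26 CPM at 45 DPA, and of these falls the one in Bingtang was lost without any 1 of 5 Bingtang libraries, the one in Newhall without replicate 1 at 142 DPA, and the one in Xinhui without any 1 of 3 Xinhui libraries (adjusted p up to 0.095).

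Among the 26 genes that rose in all 3 other varieties, orange1.1t00608, orange1.1t01028 and Cs1g26330 had the largest mean log2 rise over the 3 in edgeR's fit. orange1.1t00608 had 69.2, 74.7 and 43.5 CPM in Succari at 142 DPA and 0.811 to 1.55 CPM in Succari at 45 DPA, and 7.36 to 30.3 CPM in the other varieties at 142 DPA and 0 to 0.990 CPM at 45 DPA. The stages did not overlap in any variety, and the log2 change lay between 4.54 (Bingtang) and 5.95 (Newhall), with adjusted p = 8.8e-09 or smaller in edgeR. orange1.1t01028 rose to 45.4 to 51.3 CPM in Succari and to 18.2 to 36.6 CPM in the others at 142 DPA, against 3.48 to 4.46 CPM and 0.594 to 2.38 CPM at 45 DPA. Its Succari libraries were among the most even of all, with replicate 3 at 142 DPA the highest.

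Cs1g26330 rose by different amounts in the varieties. It had 137, 210 and 305 CPM at 142 DPA and 14.7 to 16.5 CPM at 45 DPA in Succari, and Bingtang had 62.5 to 89.8 and 0.792 to 1.77 CPM, Newhall 17.9 to 67.7 and 5.59 to 7.46 CPM, and Xinhui 61.6 to 98.8 and 1.87 to 2.74 CPM. The log2 change was 5.79 ± 0.47 in Bingtang, 2.42 ± 0.37 in Newhall and 5.07 ± 0.42 in Xinhui (SE, n = 3 each stage, largest adjusted p = 6.9e-06 in edgeR). Over the 104 genes, edgeR called the stage change larger in Newhall than in Xinhui in 1 gene and smaller in 5 (2.46% and 3.15% of all genes). It was called larger in Bingtang than in the mean of Newhall and Xinhui in 3 and smaller in 5 (2.68% and 2.63% of all genes). The Newhall against Xinhui split depended on the method, since DESeq2 called 6 larger and 6 smaller (518 and 665 of all 20739 genes). With or without a call, the fitted difference was positive in 74 genes and negative in 29. Its median was 0.50, against 0.04 over all genes. For Cs1g26330 the rise was smaller in Newhall than in Xinhui by 2.64 ± 0.61 (adjusted p = 0.0053 for the interaction in edgeR), and in Bingtang larger than in the 2 normal acid varieties by 2.04 ± 0.66 (adjusted p = 0.039).

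Among the 13 genes that fell in all 3 other varieties, Cs8g06560, Cs7g14070 and Cs4g06150 had the largest mean log2 fall over the 3 in edgeR's fit. Cs8g06560 had 21.3, 52.0 and 1.31 CPM in Succari at 142 DPA and 43.7 to 48.8 CPM at 45 DPA, whereas the other varieties had 0 to 0.986 CPM at 142 DPA and 6.19 to 31.4 CPM at 45 DPA. In Succari the stages overlapped and the change was not called (adjusted p = 0.16 in edgeR), while each of the other varieties had separate stages. Cs7g14070 fell in all 4 varieties, to 0.187 to 1.22 CPM in Succari at 142 DPA, against 21.5 to 26.8 CPM at 45 DPA (log2 change -4.86 ± 0.37 SE, adjusted p = 1.5e-09 in edgeR, n = 3 each), and to 2 reads in the 9 other libraries at 142 DPA, against 132 reads at 45 DPA. Cs4g06150 had 7.16, 4.03 and 0.373 CPM at 142 DPA and 10.3 to 14.5 CPM at 45 DPA in Succari, and 0 to 0.592 CPM at 142 DPA and 2.44 to 5.94 CPM at 45 DPA elsewhere.

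**Figure D5:**
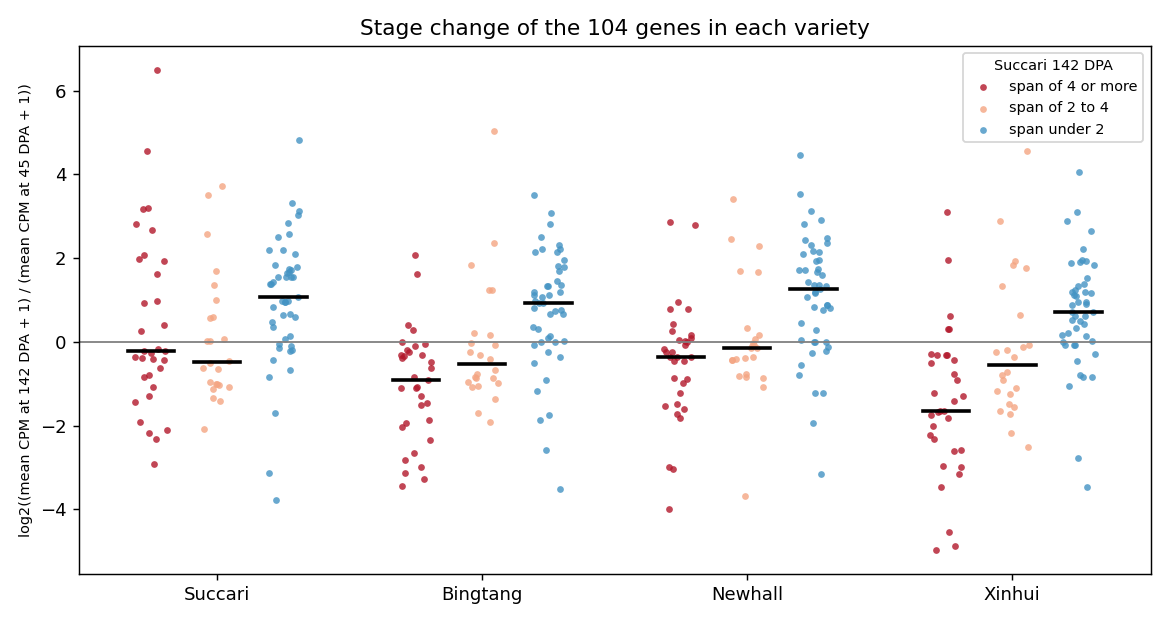
Stage change of each of the 104 genes as log2 of the mean CPM plus 1 at 142 DPA over that at 45 DPA, in Succari, Bingtang, Newhall and Xinhui, 1 point a gene, coloured by the Succari span at 142 DPA, with black bars at the medians. The medians of the genes with a span under 2 lie at 1.06, 0.93, 1.25 and 0.70 in that order of varieties, and those of the genes with a span of 4 or more lie at -0.22, -0.90, -0.35 and -1.65.

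The low acid variety Bingtang was also compared with the mean of Newhall and Xinhui. At 45 DPA, 3 of the 104 genes were higher in Bingtang and 3 lower (2.88% each, against 0.603% and 0.555% of all genes). Cs3g20580 had 6.54, 8.68 and 7.49 CPM in Bingtang, against 1.13 to 1.95 CPM in Newhall and 0.383 to 0.509 CPM in Xinhui (log2 difference 3.21 ± 0.59 SE, adjusted p = 0.0022 in edgeR), and Cs5g28080 had 7.13, 6.64 and 5.91 CPM in Bingtang, against 1.60 to 3.57 CPM in Newhall and 0.192 to 0.782 CPM in Xinhui (2.53 ± 0.57, adjusted p = 0.013). For both, Bingtang stood between Succari and the normal acid varieties, with 18 to 26.2 CPM in Succari. The acid classes refer to older fruits, since acid was reported as similar in the young ones. A link of this order to acid was not tested. orange1.1t02246 had 1.39, 1.19 and 2.56 CPM in Bingtang, against 13.0 to 18.6 CPM in Newhall and 7.28 to 12.7 CPM in Xinhui (-2.87 ± 0.51, adjusted p = 0.0014), and Cs6g02210 had 0.341 to 0.792 CPM in Bingtang, against 1.02 to 2.87 CPM in the normal acid varieties (-1.88 ± 0.50, adjusted p = 0.033). In these 2 genes all Bingtang libraries lay below every other library of that stage. The count fell to 3 without Bingtang replicate 1 or 2, either of which the call of Cs5g28080 needed (adjusted p up to 0.060), and the call of Cs6g02210 was lost without any 1 of 7 libraries (adjusted p up to 0.18 without Bingtang replicate 2).

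At 142 DPA, 3 of the 104 genes were higher in Bingtang and 10 lower (2.88% and 9.62%, against 4.07% and 3.34% of all genes). Cs8g19530 was lower in Bingtang (71.2, 133 and 106 CPM) than in Newhall and Xinhui (212 to 358 CPM), with a log2 difference of -1.46 ± 0.25 (SE, adjusted p = 0.00013 in edgeR). Cs8g16400 had 0.390 to 1.09 CPM in Bingtang and 0.795 to 3.16 CPM in the normal acid varieties (-1.79 ± 0.57, adjusted p = 0.025), where 1 Xinhui library overlapped Bingtang. Cs3g20800 had no read in Bingtang at 142 DPA, 16 reads in Newhall and 8 in Xinhui, so it was at least 4.94-fold lower than in Newhall and at least 2.37-fold lower than in Xinhui. Cs5g04300 was called higher in Bingtang (2.56 ± 0.91, adjusted p = 0.043), but its Bingtang libraries had 1.74, 0 and 5.26 CPM, against 0 to 0.903 CPM in Newhall and Xinhui, and overlapped them. The count fell to 5 without Bingtang replicate 3, without which Cs5g04300 had an adjusted p of 0.57 and Cs8g16400 one of 0.12. The call was lost without any 1 of 15 libraries for Cs5g04300, of 4 for Cs3g20800 and of 3 for Cs8g16400, and with none of the 24 for Cs8g19530.

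Newhall and Xinhui differed at 142 DPA in 4 genes that were higher in Newhall and 5 that were lower (3.71% and 3.08% of all genes). Cs2g30800 had 9.86, 5.38 and 7.91 CPM in Newhall and 0.596, 0.181 and 1.04 CPM in Xinhui (log2 difference 3.43 ± 0.43 SE, adjusted p = 5.5e-06 in edgeR, n = 3 each). It was also higher in Bingtang, with 5.68 to 9.77 CPM, than in the mean of the 2 normal acid varieties (1.91 ± 0.31, adjusted p = 7.6e-05), so that Xinhui was the variety with little of it. Cs1g13650 had 0.928 to 1.38 CPM in Newhall and 0 to 0.347 CPM in Xinhui (2.42 ± 0.80, adjusted p = 0.032). Cs2g10440 had 1.38, 0.742 and 2.12 CPM in Newhall and 6.36, 16.2 and 18.9 CPM in Xinhui (-3.47 ± 0.54, adjusted p = 7.2e-05). None of these 3 genes overlapped between the varieties at this stage. The count fell to 5 without Newhall replicate 1, and the call of Cs1g13650 was lost without any 1 of 4 libraries (adjusted p up to 0.13 without Xinhui replicate 2). Cs9g02065 had no read in Newhall and 11 reads in Xinhui at 142 DPA, at least 3.51-fold lower in Newhall, and its highest levels outside Succari, up to 1.04 CPM in Xinhui, were below the 2.24 to 3.14 CPM of the Succari libraries.

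Some of the genes had neighbouring identifiers in the deposited list. There were 4 pairs next to each other, Cs3g04560 with Cs3g04570, Cs3g20580 with Cs3g20590, Cs6g09080 with Cs6g09090, and Cs9g02065 with Cs9g02070, and 10 pairs within 5 places of each other, which held 20 genes. The count of such pairs was not compared with other gene lists. Cs6g09090 followed its neighbour, with 3.68 to 6.50 CPM in Succari and at most 0.509 CPM elsewhere at 45 DPA, and 25.8, 35.5 and 0.373 CPM in Succari and at most 0.217 CPM elsewhere at 142 DPA. Cs9g02070 had 1.35 to 1.83 CPM in Succari at 45 DPA and 1.1 to 1.68 CPM in Succari at 142 DPA, with 3 and 5 reads in the other varieties, and like Cs9g02065 it was even over the Succari replicates. Cs3g04570, next to the gene with no read outside Succari, was present in all varieties, with 0.967 to 2.03 CPM in Succari and 0 to 0.681 CPM elsewhere at 45 DPA. Cs3g20580 and Cs3g20590 differed in the other varieties, since among them Cs3g20580 was highest in Bingtang and Cs3g20590 highest in Xinhui at 45 DPA, with 0.788 to 1.19 CPM in Bingtang, against 2.34 to 4.41 CPM in Xinhui, for Cs3g20590. Neighbours can be close copies, and reads of such copies may be split between them.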

How the data were processed

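The authors deposited 1 table of whole-number counts, the unique reads of 24166 genes in each of 24 libraries, with each library's total in its column heading. The name of the table speaks of RPKM, but its values are counts, so the test planned for counts was used. Aligner and genome build: not given in the sources used here. No identifier matched the gene table at hand. CPM was computed from the totals in the headings, with "-" read as 0 counts.

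All 24 libraries in 8 groups entered a single fit of edgeR 4.0.16 (quasi-likelihood test, TMM, R 4.3.3) over the 20739 genes that reached 0.3 CPM in 3 or more libraries, and p-values were adjusted over all of them by the Benjamini-Hochberg method. A gene was called at adjusted p under 0.05 and a change of at least 2-fold. Standard errors of log2 changes are the change divided by the square root of its F statistic. A gene with no read in a group was set against a floor of 3 reads over that group (counting error only). Alternatives were DESeq2 1.42.0, limma 3.58.1 on log2(CPM + 0.1, 0.5 or 1), median ratio scaling, no filter, a replicate block, only the groups compared, and leaving out each library. The fit was tested on simulated data.

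The genes and lists were chosen with earlier results of these data known, and the classes by span, the counts of groups without overlap and the genes said to be singled out were set after values were seen. Named genes are the 8 most abundant in Succari, the 8 with the largest smaller d, the 3 nearest to the threshold on either side, the 3 that rose or fell most in all 3 other varieties, those without a read outside Succari, the 3 most uneven in Succari at each stage, the 2 largest calls each way of Bingtang and of Newhall against Xinhui, and neighbouring identifiers. Whether the replicate numbers pair libraries was checked and they do not. CPM is not scaled for gene length, so levels are compared within a gene only. Nothing given here says that the replicates are separate trees, and p-values measure the spread between these libraries.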

Additional observations from a re-analysis of the deposited data

Results flagged for a closer look

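The change between stages differed between varieties in 9 of the 104 genes by edgeR's test of the difference itself (interaction term, Benjamini-Hochberg adjusted over all genes, n = 3 libraries a group), and values are given for the 6 of them that the rule for named genes holds. The change in Newhall minus that in Xinhui was -2.64 ± 0.61 on the log2 scale for Cs1g26330 (SE, adjusted p = 0.0053 in edgeR), which rose in both varieties. It was -2.08 ± 0.58 for orange1.1t02246 (adjusted p = 0.020), with 4.34, 2.78 and 14.5 CPM at 142 DPA and 13.0, 18.6 and 17.3 CPM at 45 DPA in Newhall, and 11.5 to 18.8 CPM and 7.28 to 12.7 CPM in Xinhui. It was 3.37 ± 1.00 for Cs3g20800 (adjusted p = 0.030), which fell in Xinhui alone of these, with 0.197 to 2.12 CPM at 142 DPA and 0.798 to 1.13 CPM at 45 DPA in Newhall. It was -3.48 ± 0.66 for Cs2g10440 (adjusted p = 0.0010), which fell in both.

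The change in Bingtang minus that in the normal acid varieties was -1.84 ± 0.33 for Cs8g19530 (adjusted p = 0.00056 in edgeR), which rose in Newhall and Xinhui and had 71.2 to 133 CPM at 142 DPA and 103 to 108 CPM at 45 DPA in Bingtang. It was 2.04 ± 0.66 for Cs1g26330 (adjusted p = 0.039), 3.14 ± 0.63 for orange1.1t02246 (adjusted p = 0.0015) and 1.81 ± 0.57 for Cs6g02210 (adjusted p = 0.035). orange1.1t02246 rose in Bingtang, with 9.94 to 18.5 CPM at 142 DPA and 1.19 to 2.56 CPM at 45 DPA, and fell in Newhall. For Cs3g20800 the fitted value was -5.18 ± 1.66 (adjusted p = 0.042), which is no bound, since Bingtang had no read at 142 DPA. These interaction tests were not repeated without single libraries.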

How the results depend on the processing

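The set of genes depended on the rule more than on the scaling. It held 354 genes with 0.1 CPM added in place of 1 (all 104 among them), 36 with 5 CPM added, 29 with a d of 1 or more, and 164 (54 shared) when every Succari library had to lie above every other. TMM sizes gave 101 genes (98 shared) and median ratio sizes 100 (96 shared). Leaving out 1 library gave 91 to 119 genes, 111 of them without Succari replicate 3 at 142 DPA, and with that replicate as the only Succari library of its stage the rule gave 66 (47 shared).

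Called genes ranged over 46 to 64 (Newhall), 54 to 71 (Xinhui), 50 to 73 (Bingtang) and 53 to 64 (Succari) for the stage change when single libraries were left out, over 3 to 7 and 5 to 15 for Bingtang at 45 and 142 DPA, and over 4 to 28 and 5 to 13 for Newhall against Xinhui at 45 and 142 DPA. With only the 29 genes of d of 1 or more, 8 were called between stages in Newhall (3 higher, 5 lower). The stage calls were 20 in Xinhui (3 higher, 17 lower), 13 in Bingtang (3 and 10) and 18 in Succari (8 and 10). In the whole set, 35 were higher and 19 lower in Newhall, and 32 and 36 in Xinhui. Bingtang had 33 and 30 there, and Succari 45 and 18. Falls thus outnumbered rises in every variety among the 29 genes, but only in Xinhui in the whole set. The 29 genes gave 2 and 1 calls for Bingtang at 45 and 142 DPA, and 2 for Newhall against Xinhui at 142 DPA. For Bingtang at 142 DPA, limma called 8 with a pseudocount of 0.1 and 6 with 1. For Newhall against Xinhui at 142 DPA, limma with 1 called 4, the fit of only the groups compared 3, and the fit with Succari replicate 3 alone 14. At 45 DPA the fit of only the groups compared called 33 and the fit with replicate 3 alone 29. Their causes were not tested.

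With replicate 3 as the only Succari library at 142 DPA, the stage change in Succari reversed for orange1.1t01050 (-1.72, against 3.25), Cs6g09090 (-3.65, against 2.15) and Cs4g08530 (-2.74, against 2.97). Of 3993 alternative values of 121 results of named genes, 3807 kept direction and call, 183 kept the direction and lost the call, and 3 reversed. By result, 42 of the 121 lost the call in at least 1 alternative. Many alternatives left out a library of a group that the result did not compare. A replicate block gave 54, 67, 64 and 60 stage calls (Newhall, Xinhui, Bingtang, Succari), 6 and 13 for Bingtang and 11 and 8 for Newhall against Xinhui at 45 and 142 DPA. The numbers did not pair the libraries, since the correlation of same-numbered libraries passed 0.1 in 1 of 84 pairs. At these depths genes under about 1 CPM rest on a few reads a library, and a difference missed there is not shown to be absent.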
